A study of Macaca mulatta with 12 samples.

Results

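Integrins and the laminins they bind were described in rhesus macaque embryonic stem (ES) cells and skin fibroblasts. Members were taken by symbol: alpha integrins (ITGA), beta integrins 1 to 8 (ITGB), the laminin alpha, beta and gamma chains (LAMA, LAMB and LAMC) and the nidogens (NID). Only probe sets with 1 gene symbol in the platform annotation were used, and where a gene had several, the one with the highest mean (12 arrays) stood for it. This gave 30 members of 14132 genes, made up of 12 alpha integrins, 8 beta integrins, 9 laminin chains and 1 nidogen. They had 72 of the 52766 probe sets. ITGA4, ITGA5, ITGA9, ITGA10, ITGAL, ITGAX, LAMA5, LAMB3 and NID2 were among the genes not analysed here, so receptors and laminins that contain them are described only in part.

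An integrin is a receptor at the cell surface made of 1 alpha and 1 beta chain, and the pair decides which matrix protein is bound. Laminins are trimers of 1 alpha, 1 beta and 1 gamma chain, named by their chain numbers, and form the base layer of basement membranes, where nidogen links them to collagen IV. Pluripotent stem cells are known to attach to laminin through the integrin of ITGA6 and ITGB1, while fibroblasts hold to collagen and fibronectin.

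Total RNA was hybridised to Affymetrix rhesus arrays, 3 for each of 4 groups. ORMES-22, the biparental control, is an ES line from an embryo fertilised in vitro. The line rPESC-2 is a heterozygous parthenogenetic ES line and ORMES-9 a homozygous one. Parthenogenetic embryos arise from an egg without fertilisation. The labels of ORMES-9 conflict, since its source field names a fertilised blastocyst, and the line was treated here as parthenogenetic, following its sample descriptions and the design text. All ES lines are labelled female, were kept on mouse embryonic fibroblast feeder cells and were harvested as colonies picked for an undifferentiated look. ORMES-22 was at passage 18 (replicate A), 21 (B) and 19 (C). The passages of rPESC-2 were 16, 10 and 16 in the same order, and ORMES-9 was used at 13, 14 and 16. Every ORMES-22 array was therefore at a higher passage than every array of the parthenogenetic lines. Passage and type of line cannot be told apart in the comparisons with ORMES-22. The fibroblasts are labelled male and came from back skin of an adult animal of 9 years, grown without feeders. Each group is 1 line or 1 skin source, so p-values reflect how cultures or arrays of that source vary, not how lines or animals do. Sex, feeders, medium and tissue all differ between fibroblasts and ES cells and cannot be told apart in that comparison.

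Values are log2 expression, where a difference of 1 is 2-fold. Array medians lay between 5.012 and 5.098. A value of 4.26, which 90% of the 42 bacterial control probe sets did not exceed, served as the background level, and each member exceeded it in the mean of at least 1 group. The array of ORMES-22 replicate A stood apart: it correlated with the other arrays of its line at 0.9855 and 0.9844 over all probe sets, and at up to 0.9896 with an array of a parthenogenetic line. Beside it, the lowest correlation within a line was 0.9937 in rPESC-2, 0.9948 in ORMES-9 and 0.9957 in fibroblasts. Defining markers fitted the labels in most cases. POU5F1, a core pluripotency factor, averaged 13.1, 12.9 and 12.9 in ORMES-22, rPESC-2 and ORMES-9 and 4.9 in fibroblasts. Of 11 measured pluripotency genes, 8 (72.7%) were called lower in fibroblasts, beside 14.5% of all genes. The probe set of NANOG went the other way, at 9.53 in fibroblasts and 7.95 to 8.41 in the ES lines.

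The question asked of each ES line was how it differed from the others, and fibroblasts served as the somatic control. A gene was called different at an adjusted p under 0.05 in limma, Benjamini-Hochberg over all probe sets, together with a difference of at least 2-fold. Among the ES lines the called integrins and laminins were few. In rPESC-2 against ORMES-22, 1 of 30 was higher (LAMB1) and 1 lower (ITGB1), beside 1.03% of all genes higher and 0.665% lower. In ORMES-9 against ORMES-22, 1 was higher (LAMB1) and 0 lower, beside 1.39% and 0.892% of all genes. Between ORMES-9 and rPESC-2 0 members were called either way by limma. The background there was 0.764% higher and 0.87% lower. Members with an unadjusted p under 0.05 numbered 11 in rPESC-2 and 9 in ORMES-9 against ORMES-22 and 6 between the parthenogenetic lines, which is 36.7%, 30% and 20% of them beside 25.8%, 24% and 21.5% of all genes. Against the mean of the 3 ES lines, fibroblasts had 8 members higher and 3 lower, which is 26.7% and 10% of the members beside 12.9% and 14.5% of all genes. The median difference of the members was -0.13, -0.11, 0.01 and -0.01 in these comparisons in turn, and that of all genes -0.03, -0.01, 0.02 and -0.15.

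**Figure D1:**
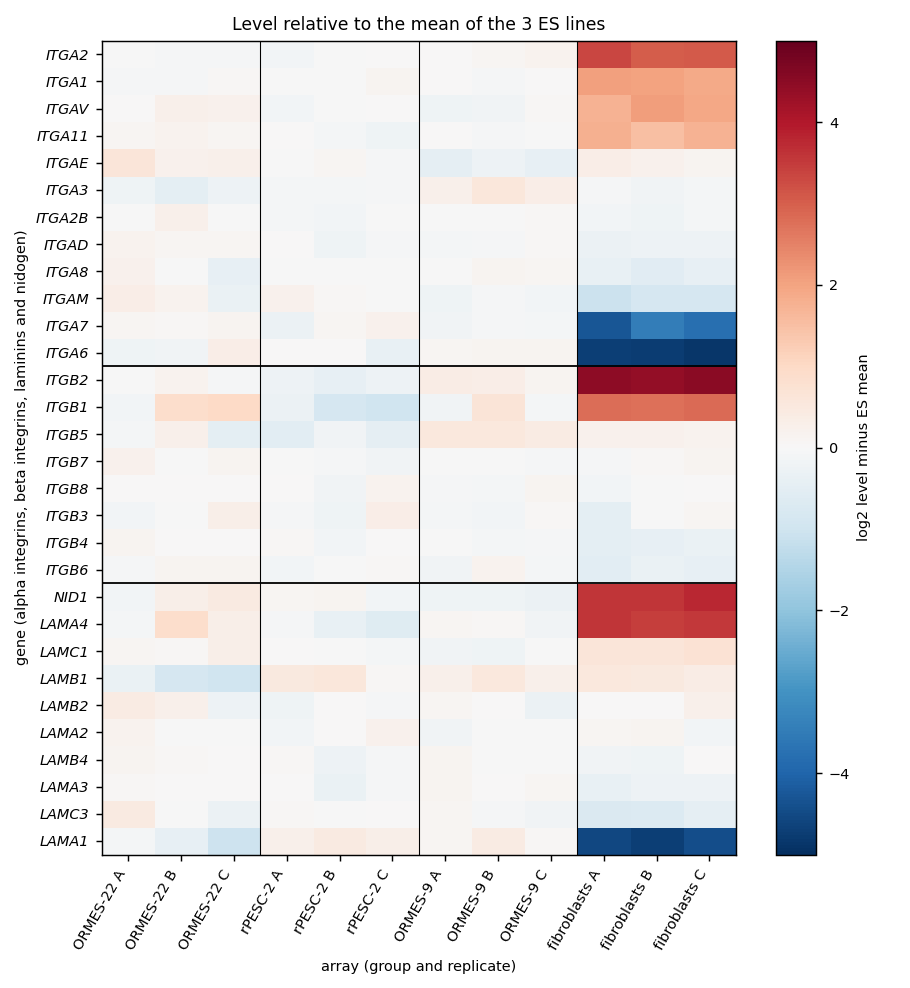
Log2 level of the 30 members (rows, in blocks of alpha integrins, beta integrins, and laminins with nidogen) on each of the 12 arrays (columns), as the difference from the mean of the 3 ES lines. The fibroblast columns carry the strong colours, red for ITGB2, NID1 and LAMA4 and blue for ITGA6, LAMA1 and ITGA7, while the ES columns stay pale apart from ITGB1, LAMB1, LAMA1 and LAMA4.

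Among the ES lines, the chain that changed in both parthenogenetic lines was LAMB1, the beta chain shared by laminin-111, laminin-411 and laminin-511. It measured 8.04, 7.52 and 7.38 on the ORMES-22 arrays A, B and C, then 8.87, 8.91 and 8.41 in rPESC-2 and 8.63, 8.89 and 8.61 in ORMES-9. Every parthenogenetic array lay above every ORMES-22 array, and the 2 parthenogenetic lines overlapped each other. LAMB1 was 2.12-fold higher in rPESC-2 (log2 difference 1.08, SE 0.171, adjusted p = 0.00374) and 2.09-fold higher in ORMES-9 (1.06, SE 0.171, adjusted p = 0.0027). Both comparisons use the same ORMES-22 arrays. A different LAMB1 probe set gave differences of 1.06 and 1.02. Since the differences sit just past 2-fold, single arrays decide the call on size: without ORMES-22 replicate C they were 0.95 in rPESC-2 and 0.93 in ORMES-9, without rPESC-2 replicate B 0.99, and without ORMES-9 replicate B 0.97, each with an adjusted p under 0.05.

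LAMA1, the alpha chain of laminin-111, which is the main laminin of the early embryo, moved the same way without reaching 2-fold. Its level was 8.17, 7.88 and 7.26 in ORMES-22, 8.52, 8.72 and 8.59 in rPESC-2, and 8.38, 8.69 and 8.35 in ORMES-9. The ORMES-22 arrays were spread widely and all lay below the parthenogenetic arrays. The difference was 0.84 in rPESC-2 (SE 0.188, adjusted p = 0.026) and 0.70 in ORMES-9 (adjusted p = 0.0497), and without ORMES-22 replicate A that in rPESC-2 became 1.04 (adjusted p = 0.00147). The remaining chain of the trimer, LAMC1, the gamma chain of most laminins, gave -0.20 in rPESC-2 (adjusted p = 0.225) and -0.30 in ORMES-9 (adjusted p = 0.0653). Among the other laminins, LAMA4, found in vessel and mesenchymal basement membranes, gave -0.69 in rPESC-2 (adjusted p = 0.0828) and -0.36 in ORMES-9 (adjusted p = 0.397), with overlapping arrays.

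Several endoderm markers were also higher in the parthenogenetic lines. Of 7 measured endoderm genes, limma called 4 higher in rPESC-2 (SOX17, GATA6, FOXA2 and CER1) and 3 higher in ORMES-9 (the same without CER1). That is 57.1% and 42.9% of the list, beside 1.03% and 1.39% of all genes. GATA4, AFP and APOA1 were not called, at 0.28, 0.22 and -0.16 in rPESC-2 and 0.21, 0.39 and 0.26 in ORMES-9. SOX17, a transcription factor of early endoderm, measured 5.00, 4.62 and 5.93 in ORMES-22, 7.87, 8.13 and 8.30 in rPESC-2, and 7.55, 6.85 and 8.25 in ORMES-9. The mean of the list was 6.25 to 6.8 on the ORMES-22 arrays, 7.86 to 8.05 in rPESC-2 and 7.48 to 7.92 in ORMES-9. All 7 genes had a mean above the background level in each ES line. On ORMES-22 arrays A, B and C the list mean was 6.25, 6.47 and 6.8, and LAMB1 measured 8.04, 7.52 and 7.38. In rPESC-2 the list mean was 7.86, 7.96 and 8.05 in the same order, and LAMB1 measured 8.87, 8.91 and 8.41. In ORMES-9 the list mean was 7.86, 7.48 and 7.92, and LAMB1 measured 8.63, 8.89 and 8.61. The part of endoderm-like cells in the laminin values was not tested, and in these bulk samples more cells of a type cannot be told apart from more RNA per cell.

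ITGB1, the beta chain shared by the receptors for laminin, collagen and fibronectin, was the member called between rPESC-2 and ORMES-22 on the receptor side. ORMES-22 arrays measured 10.14, 11.16 and 11.28, rPESC-2 arrays 9.97, 9.43 and 9.28, and ORMES-9 arrays 10.10, 10.90 and 10.18. The rPESC-2 arrays were the lowest of the 12, with a narrow gap of rPESC-2 replicate A to ORMES-9 replicate A and ORMES-22 replicate A, and ORMES-9 overlapped ORMES-22. In rPESC-2 ITGB1 fell by 1.30 (SE 0.292, 2.46-fold, adjusted p = 0.0263). ORMES-9 gave -0.47 against ORMES-22 (adjusted p = 0.451) and 0.83 against rPESC-2 (adjusted p = 0.152). ITGB1 had the largest SD of the members in each ES line (0.627, 0.365 and 0.438, beside median SDs of 0.138, 0.112 and 0.0959), and a single probe set. ITGB1 no longer passed when ORMES-22 replicate B was left out (-1.15, adjusted p = 0.104) or C (-1.09, adjusted p = 0.0864), nor without rPESC-2 replicate B (-1.24, adjusted p = 0.109) or C (-1.16, adjusted p = 0.0857). A fit of rPESC-2 and ORMES-22 alone kept neither call, with adjusted p-values of 0.154 for ITGB1 and 0.0787 for LAMB1.

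Of 11 measured fibroblast markers, 2 were called lower and 0 higher in rPESC-2 against ORMES-22, and 1 lower and 0 higher in ORMES-9. The lower ones are 18.2% and 9.09% of the list, beside 0.665% and 0.892% of all genes. The mean of the list was 7.93 to 8.17 on the ORMES-22 arrays, 7.03 to 7.67 in rPESC-2, 7.28 to 7.58 in ORMES-9 and 11.2 in fibroblasts. The called genes were TWIST1, a mesenchymal transcription factor, in rPESC-2 (-1.80, adjusted p = 0.00128) and in ORMES-9 (-2.67, adjusted p = 4.02e-05), and COL6A3, a collagen VI chain, in rPESC-2 (-1.84, adjusted p = 0.00614). Against ORMES-22, 9 of the 11 differences were below 0 and 2 above in rPESC-2 (median -0.71). In ORMES-9, 8 were below 0 and 3 above (median -0.54). In each ES line 9 of the 11 markers had a mean above the background level. The exceptions were LUM and PRRX1, which were high in fibroblasts (ES means 3.59 to 3.91 and 4.09 to 4.23). The part of such cells, or of mouse feeder cells, in the ITGB1 values was not tested.

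By receptor pairs, 17 of 24 textbook integrin pairs had both chains measured. The 8 pairs with a called chain in rPESC-2 against ORMES-22 are the 8 that contain ITGB1, and their alpha chains (ITGA1, ITGA2, ITGA3, ITGA6, ITGA7, ITGA8, ITGA11 and ITGAV) were not called. ITGA6, the alpha chain of the main laminin receptor of stem cells, measured 10.30, 10.35 and 10.86 in ORMES-22, 10.54, 10.56 and 10.17 in rPESC-2, and 10.64, 10.66 and 10.68 in ORMES-9, and gave -0.08 in rPESC-2 and 0.16 in ORMES-9. Its arrays overlapped between ORMES-22 and each parthenogenetic line. In the comparisons of ORMES-9 with either line, 0 of 17 pairs had a called chain.

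Smaller differences passed the adjusted p without reaching 2-fold, most of them in ORMES-9. ITGA3, a laminin receptor chain, measured 6.84, 6.57 and 6.80 in ORMES-22, 6.96, 6.96 and 6.99 in rPESC-2 and 7.30, 7.62 and 7.38 in ORMES-9. All ORMES-9 arrays were above all others, by 0.69 against ORMES-22 (adjusted p = 0.000964) and 0.46 against rPESC-2 (adjusted p = 0.0154), and its other probe set gave 0.73 and 0.57. ITGB5, which joins ITGAV in a vitronectin receptor, measured 10.68, 11.04 and 10.28 in ORMES-22, 10.23, 10.58 and 10.32 in rPESC-2 and 11.31, 11.32 and 11.18 in ORMES-9. Here too ORMES-9 lay above both lines, by 0.60 (adjusted p = 0.0436) and 0.89 (adjusted p = 0.00568), while the dimmer probe set of ITGB5 gave 0.38 and 0.83 with adjusted p-values of 0.503 and 0.11. ITGAE, the alpha chain of an E-cadherin receptor of lymphocytes, was lower by 0.74 in ORMES-9 against ORMES-22 (log2 difference -0.74, adjusted p = 0.00166). ITGB2, the leukocyte beta chain, was 0.58 above rPESC-2 in ORMES-9 (adjusted p = 0.00266), while its other 3 probe sets gave 0.15, 0.34 and 0.01 (adjusted p = 0.619, 0.202 and 0.98).

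**Figure D2:**
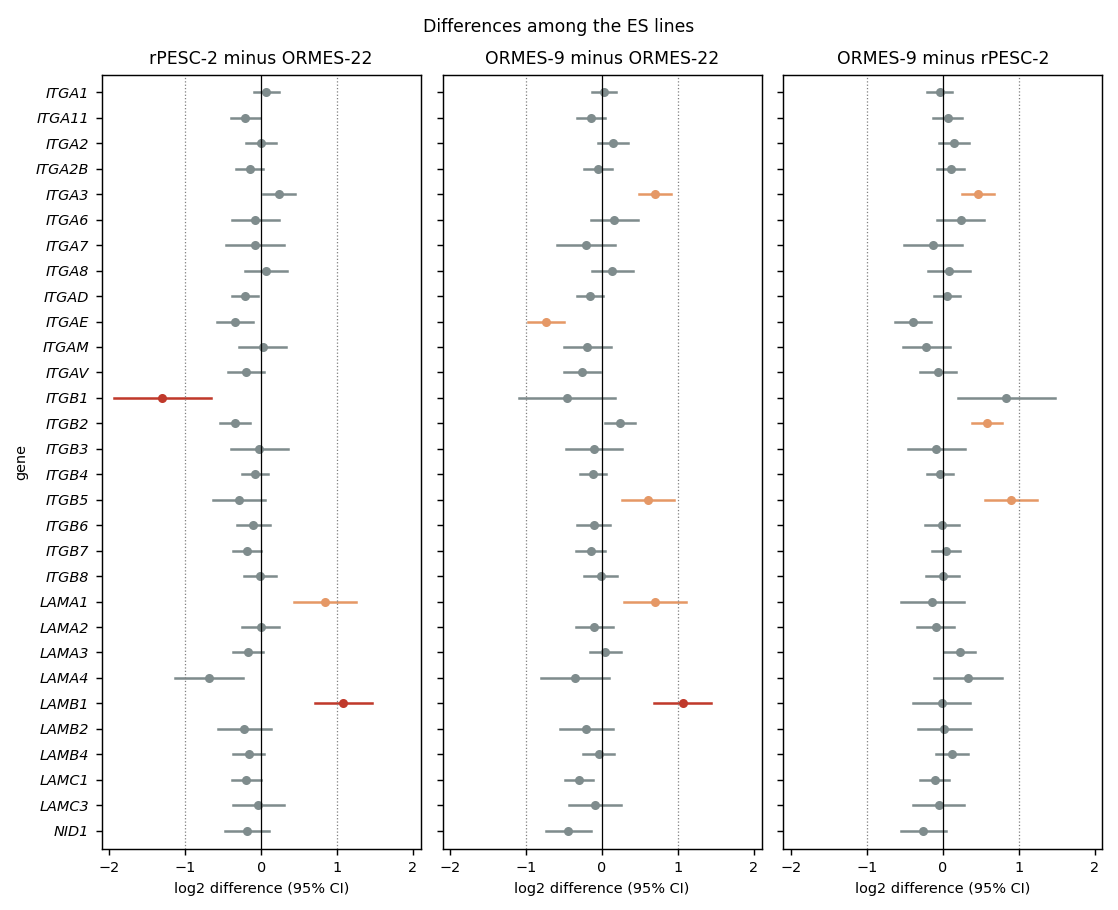
Log2 difference with its 95% confidence interval (x axis) for each member (y axis) in the 3 comparisons among ES lines. Red marks called genes (ITGB1 at -1.30, LAMB1 at 1.08 and 1.06), orange an adjusted p under 0.05 below 2-fold, grey the rest, and dotted lines 2-fold.

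For the members that were not called, the 95% intervals of limma give a range for the difference of the probe set used. In rPESC-2 against ORMES-22, 26 of 28 uncalled members had an interval within 2-fold, the others being LAMA1 and LAMA4. The count was 27 of 29 in ORMES-9 against ORMES-22 (not ITGB1 and LAMA1) and 28 of 30 in ORMES-9 against rPESC-2 (not ITGB1 and ITGB5). These intervals hold for 1 probe set per gene and are not adjusted for the number of genes. A dimmer ITGA6 probe set gave 1.26 in rPESC-2 and 1.12 in ORMES-9 against ORMES-22, outside the intervals of the one used.

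Fibroblasts differed from the ES lines first in which laminin alpha chain was high. LAMA1 measured 3.75, 3.59 and 3.84 in fibroblasts, below the background level, against 7.26 to 8.72 in the 9 ES arrays. It was 23.6-fold lower (log2 difference -4.56, SE 0.153, adjusted p = 9.46e-11). LAMA4 measured 9.25, 9.14 and 9.23 in fibroblasts and 5.08 to 6.55 in ES cells, which is 11.5-fold higher (3.52, SE 0.168, adjusted p = 2.44e-09). For neither gene did a fibroblast array reach the ES range. Their beta and gamma partners were not called: LAMB1 gave 0.45 (adjusted p = 0.0147), LAMB2 0.10 (adjusted p = 0.541) and LAMC1 0.64 (adjusted p = 6.4e-06). Against ORMES-22 alone, whose LAMB1 was the lowest, LAMB1 was called higher in fibroblasts (1.17, adjusted p = 0.000102).

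NID1, the nidogen that joins laminin to collagen IV, measured 10.28, 10.29 and 10.46 in fibroblasts and 6.40 to 7.16 in ES cells. That is a 12.4-fold higher level (3.64, SE 0.11, adjusted p = 3.55e-11), with all fibroblast arrays far above the ES arrays. LAMC3, a gamma chain of nerve and epithelia, was lower by less than 2-fold (-0.62, adjusted p = 0.00108). The probe set used for LAMA3, an alpha chain of epithelia, was also lower (-0.30, adjusted p = 0.00494). Its other probe sets gave -0.16, -0.32 and, the other way, 0.47 (adjusted p = 0.000607). LAMA2, the alpha chain of muscle laminin, and LAMB4 gave 0.03 and -0.12 with adjusted p-values of 0.781 and 0.191.

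The collagen receptors were higher in fibroblasts in each chain measured. ITGA1 measured 6.12, 6.11 and 5.97 in fibroblasts and 4.01 to 4.20 in ES cells, where all 9 arrays were below the background level. ITGA2 measured 7.94, 7.62 and 7.64 against 4.46 to 4.75, and ITGA11 measured 7.44, 7.17 and 7.40 against 5.45 to 5.82. In none of the 3 did the groups overlap. The differences were 3.95-fold for ITGA1 (1.98, SE 0.0607, adjusted p = 3.89e-11), 8.88-fold for ITGA2 (3.15, SE 0.0738, adjusted p = 3.34e-12) and 3.21-fold for ITGA11 (1.68, SE 0.0701, adjusted p = 6.95e-10). Differences from values at background, as of ITGA1 in ES cells, are understated by the array summary. ITGA1 and ITGA2 are neighbours on chromosome 6 with 1 protein-coding gene between them.

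Their common partner ITGB1 was at 13.06, 13.02 and 13.11 in fibroblasts, above the 9.28 to 11.28 of the ES arrays. The difference was 6.92-fold (2.79, SE 0.239, adjusted p = 6.09e-07). By the probe sets used, both chains were thus called higher in 4 of the 17 pairs measured. These were ITGA1, ITGA2, ITGA11 and ITGAV, each with ITGB1. Another probe set of ITGA8 (5.19) and another of ITGB8 (1.96) were called higher. With those, ITGA8 with ITGB1 and ITGAV with ITGB8 would also have both chains higher. ITGAV, the alpha chain of receptors for the RGD sequence of fibronectin and vitronectin, measured 9.09, 9.44 and 9.26 in fibroblasts against 7.12 to 7.58 in ES cells (3.8-fold, 1.92, SE 0.0882, adjusted p = 1.73e-09). By the probe sets used, its other beta partners were not called, at -0.14 for ITGB3, 0.20 for ITGB5, -0.42 for ITGB6 and -0.05 for ITGB8.

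**Figure D3:**
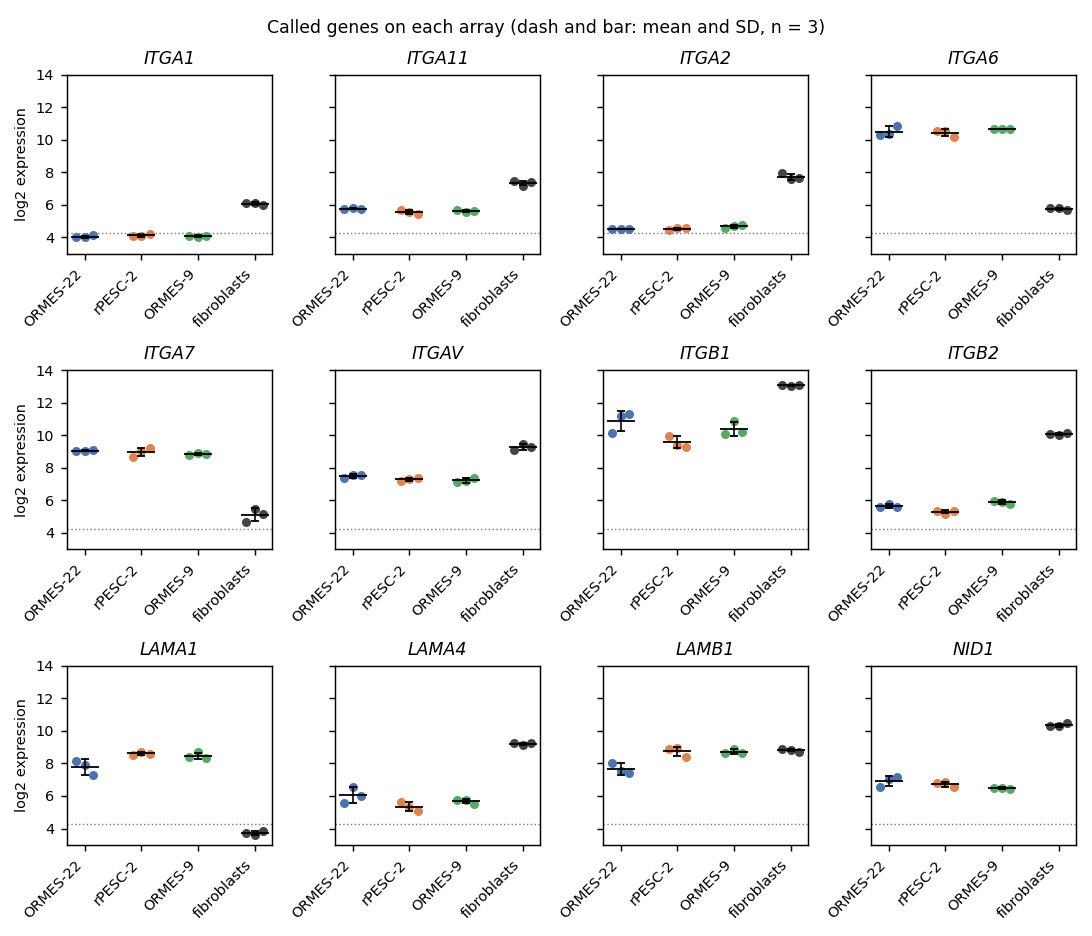
Log2 expression (y axis, same scale in each panel) of the 12 members called in any comparison, with a point for each array, grouped as ORMES-22, rPESC-2, ORMES-9 and fibroblasts. Dash and bar are mean and SD (n = 3) and the dotted line is the background level of 4.26; fibroblast points stand apart in all panels but LAMB1.

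The laminin receptors went the other way in their alpha chains. ITGA6 measured 5.80, 5.79 and 5.67 in fibroblasts against 10.17 to 10.86 in the ES arrays. It was 27.4-fold lower (-4.78, SE 0.116, adjusted p = 4.72e-12). ITGA7, a laminin receptor chain known from muscle, measured 4.69, 5.49 and 5.18 in fibroblasts against 8.68 to 9.19, a 14.3-fold lower level (-3.84, SE 0.142, adjusted p = 2.32e-10). Both pairs therefore had a lower alpha chain and a higher ITGB1. ITGA3, the other laminin-binding alpha chain, lay at 6.89 to 6.97 in fibroblasts, inside the ES range of 6.57 to 7.62 (-0.11, adjusted p = 0.264). ITGB4, the partner of ITGA6 in epithelial hemidesmosomes, was lower by under 2-fold (-0.40, adjusted p = 0.000206). Of the remaining pairs, 9 had 1 called chain and 2 had none (ITGA2B with ITGB3, the platelet fibrinogen receptor, and ITGAE with ITGB7).

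**Figure D4:**
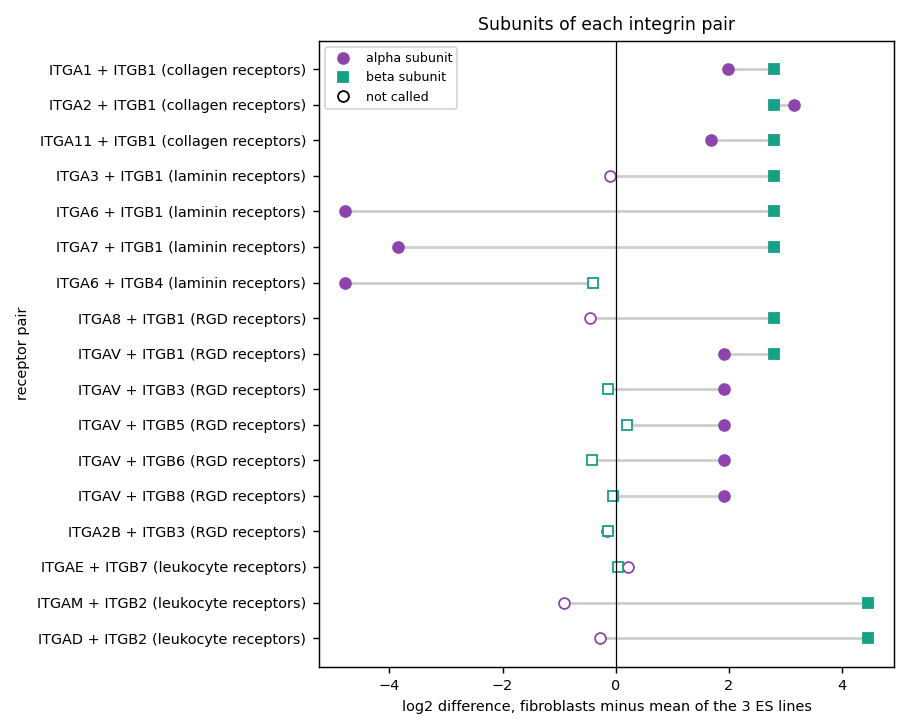
Log2 difference of fibroblasts from the mean of the 3 ES lines (x axis) for the alpha chain (circle) and beta chain (square) of each of the 17 measured integrin pairs (y axis), open where not called. Values are those of the probe sets used. Both chains lie to the right for ITGA1, ITGA2, ITGA11 and ITGAV with ITGB1, while ITGA6 and ITGA7 lie far to the left of their partner ITGB1.

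ITGB2, the beta chain of the leukocyte integrins, had the largest increase of the 30 members by the probe sets used, although another ITGA8 probe set gave 5.19. It measured 10.08, 10.01 and 10.14 in fibroblasts and 5.19 to 5.99 in ES cells, with no overlap. The difference was 22.0-fold (4.46, SE 0.0738, adjusted p = 1.58e-13), and 2 of the other 3 probe sets of ITGB2 were also called higher (2.21 and 1.29, beside 0.51). Neither of its 2 measured alpha partners was higher: ITGAM was lower by less than 2-fold (-0.91, adjusted p = 2.33e-05) and ITGAD gave -0.27 (adjusted p = 0.00245), with fibroblast values of ITGAD of 4.19 to 4.23, at the background level. Of 5 measured leukocyte genes limma called 0 higher and 1 (20%) lower, LCP1 (-3.79, adjusted p = 6.71e-10). The shares of all genes were 12.9% and 14.5%. CD68 (0.61, adjusted p = 3.35e-06) and CD14 (0.65, adjusted p = 2.07e-05), markers of macrophages and monocytes, were higher by less than 2-fold on every fibroblast array. CORO1A was lower by less than 2-fold (-0.32, adjusted p = 0.0211). The mean of the 5, which LCP1 lowers, was 5.26 to 5.32 in fibroblasts and 5.73 to 6.04 in ES cells. PTPRC, the pan-leukocyte surface marker, measured 3.80, 3.85 and 4.03, below the background level. The part of leukocytes in the ITGB2 values was not tested further.

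Probe sets of 1 gene did not always give the same result. Of the 30 members, 20 had more than 1. For ITGA8, a chain of an RGD receptor of mesenchymal cells, the probe set used lay at 5.70 to 5.87 in fibroblasts and 5.85 to 6.46 in ES cells (-0.45, adjusted p = 0.00227), and its 3 rPESC-2 values were identical at 6.249. The other ITGA8 probe set had the lower mean over the 12 arrays (5.54 against 6.14) but was the brighter one in fibroblasts. There it measured 9.54, 9.34 and 9.40, against 4.06 to 4.60 in ES cells, a difference of 5.19 (adjusted p = 3.56e-13). For ITGB8, another ITGAV partner, the probe set used was near background in all groups (means 4.37 to 4.43), while another measured 5.80, 5.75 and 5.34 in fibroblasts and 3.20 to 4.05 in ES cells (1.96, adjusted p = 5.79e-08). With the probe set of largest variance, ITGA8 and ITGB8 would both be called higher. ITGA7 was called lower by 2 of its 3 probe sets (-3.84 and -2.22) and the third gave 0.37. ITGA6 was called lower by 3 of 4 (-4.78, -3.86 and -3.17, beside -0.60). For LAMA4 and LAMA1 the second, dimmer probe sets gave 0.46 and -0.64, in the same direction as the called ones and under 2-fold.

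**Figure D5:**
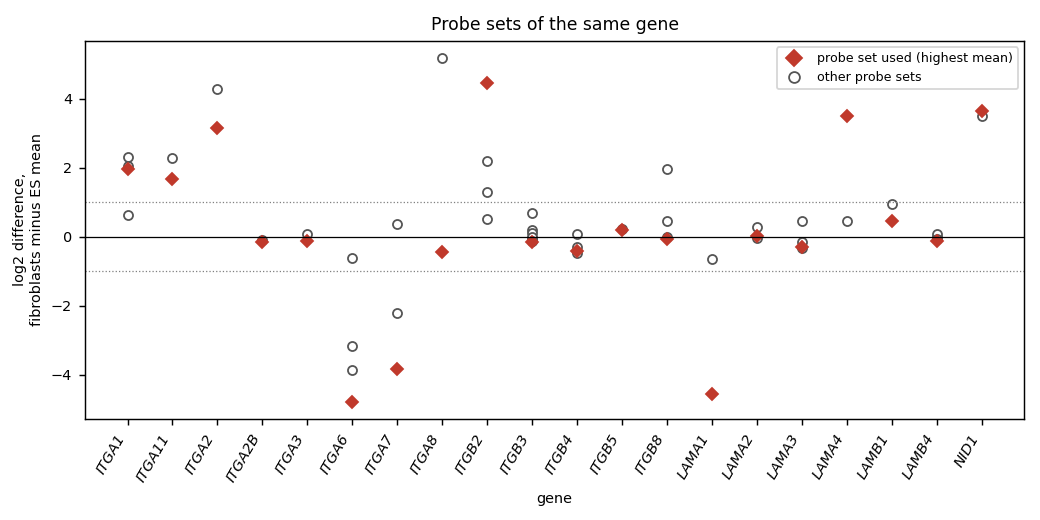
Log2 difference of fibroblasts from the mean of the 3 ES lines (y axis) for every probe set of the 20 members with more than 1 (x axis); red diamonds are the probe sets used, open circles the others, dotted lines 2-fold. ITGA8 (5.19 against -0.45), ITGB8 (1.96 against -0.05) and ITGA7 (0.37 against -3.84) each have a probe set on the other side of 0 from the one used. Smaller cases include ITGB3 (0.69 against -0.14) and LAMA3 (0.47 against -0.30).

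Inside the cell, integrins act through adaptors and kinases such as talins, kindlins, ILK with its parvin and PINCH partners, and SRC. Of 20 measured genes of this machinery, limma called 0 in rPESC-2 against ORMES-22, and 1 in each direction in ORMES-9 against either line. That is 5% each way in ORMES-9. The share of all genes was 1.39% higher and 0.892% lower against ORMES-22, and 0.764% and 0.87% against rPESC-2. In ORMES-9, FERMT1, a kindlin that activates integrins, was higher and SRC, a tyrosine kinase at adhesions, was lower than in both other lines. FERMT1 measured 7.29, 7.43 and 7.07 in ORMES-9, 5.55, 5.58 and 5.58 in ORMES-22, and 5.89, 5.54 and 6.05 in rPESC-2, so ORMES-9 stood above both (1.69, adjusted p = 3.8e-05, and 1.44, adjusted p = 0.000157). SRC measured 5.85, 5.98 and 5.91 in ORMES-9 and 6.91 to 7.43 in the other ES arrays, without overlap (-1.18, adjusted p = 0.000207, and -1.29, adjusted p = 0.000126). In fibroblasts 15% of the 20 were called higher and 10% lower, close to the 12.9% and 14.5% of all genes. The 3 higher genes were LIMS1 (3.78, adjusted p = 1.69e-09), PARVA (2.61, adjusted p = 3.84e-08) and TNS3 (2.26, adjusted p = 1.25e-08), and the 2 lower ones FERMT1 (-1.56, adjusted p = 2.93e-07) and TLN2 (-1.27, adjusted p = 3.06e-06). LIMS1 is PINCH-1, PARVA a parvin, TNS3 a tensin and TLN2 a talin. For FERMT1 the high ORMES-9 level raised the ES mean. FERMT1 averaged 4.66 in fibroblasts, beside 5.57 in ORMES-22, 5.82 in rPESC-2 and 7.26 in ORMES-9. The median of the 20 was -0.24, -0.06, 0.21 and -0.09 in the 4 comparisons.

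Of 21 measured genes for other basement membrane parts and for laminin or integrin partners, 0 were called in either parthenogenetic line against ORMES-22. Between ORMES-9 and rPESC-2, NTN4, a netrin that binds laminin, was higher in ORMES-9 (1.09, adjusted p = 0.00278). FREM2, a basement membrane protein of the Fraser complex, was lower (-1.03, adjusted p = 0.0441). That is 4.76% of the list each way, beside 0.764% of all genes higher and 0.87% lower. In fibroblasts 4 were higher and 7 lower, 19% and 33.3% beside 12.9% and 14.5% of all genes. The higher ones were TNC, tenascin C (7.68, adjusted p = 3.44e-14), NPNT, nephronectin, a ligand of the ITGA8 receptor (5.36, adjusted p = 1.31e-13), NTN4 (3.09, adjusted p = 1.42e-09) and FN1, fibronectin (2.00, adjusted p = 0.000167). NPNT measured 9.28, 9.31 and 8.95 in fibroblasts and 3.61 to 4.09, below the background level, in the ES arrays. The 4 with the largest decrease were SPP1, osteopontin, a ligand of ITGAV receptors (-8.27, adjusted p = 5.05e-12), FRAS1 (-6.86, adjusted p = 5.18e-12), the collagen IV chain COL4A5 (-5.06, adjusted p = 2.82e-13) and agrin, AGRN (-3.28, adjusted p = 1.29e-11). The median of the 21 was -0.17, -0.14, 0.06 and 0.16.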

How the data were processed

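The deposited table holds log2 expression per probe set, made by the authors by RMA (submitters' processing notes). Its version and probe set definition are not given in the sources used here. The log2 scale was inferred from the values. RMA equalises array distributions and shrinks differences near background. Left out were 99 control features of 52865. Of the rest, 24956 probe sets had 1 symbol, 361 several and 27449 none, and all 30 member symbols were in the reference gene table of T2T-MMU8v2.0, used for names and gene order only. No arrays were identical.

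Testing used lmFit and eBayes of limma 3.58.1 (R 4.3.3) with a mean for each group in a fit of the 12 arrays (residual degrees of freedom 8, prior 3.69, two-sided), with p-values adjusted by Benjamini-Hochberg over 52766 probe sets. A call needs an adjusted p under 0.05 and 2-fold. The method was tested on simulated data. The number of arrays limits the precision. The members, gene lists, pairs and trimers were chosen with earlier results of these data known. Values are given per array for members called in any comparison and their partners, and for up to 4 called genes of each pathway list. Alternatives were another choice of samples in the fit, the replicate letter as a block, a filter on dim probe sets, median and quantile scaling, trended and robust moderation, array weights, no minimum fold, adjustment over genes, other probe set choices, omission of each array in turn, and single ES lines in place of their mean. The references rPESC-2 alone and ORMES-9 alone were added after seeing the data.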

Additional observations from a re-analysis of the deposited data

Results flagged for a closer look

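These values come from probe sets that were not the ones used for their genes. A dimmer ITGA6 probe set was higher by 1.26 in rPESC-2 (adjusted p = 0.0116) and by 1.12 in ORMES-9 (adjusted p = 0.0163) than in ORMES-22, measuring 6.63, 7.17 and 7.62 in ORMES-22, 8.38, 8.62 and 8.19 in rPESC-2 and 8.73, 8.01 and 8.03 in ORMES-9, while the brighter ITGA6 probe sets gave -0.08 and 0.05 in rPESC-2. An ITGA8 probe set was higher in fibroblasts by 5.19, and an ITGB8 probe set by 1.96, where the probe sets used gave -0.45 and -0.05.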

How the results depend on the processing

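All 11 calls in fibroblasts were kept under the 26 alternatives run for them, and no called member changed direction in 340 recomputed values, of which 12 lost the call. These 12 belong to ITGB1 in rPESC-2 and to LAMB1 in the parthenogenetic lines. With only the groups compared, rPESC-2 against ORMES-22 had 0 members higher and 0 lower. Leaving out single arrays gave 0 to 2 higher and 0 to 1 lower there, and 0 to 1 higher in ORMES-9 against ORMES-22. Quantile normalisation gave 0 higher in ORMES-9 against ORMES-22, where LAMB1 was at 0.99 (adjusted p = 0.00332), and leaving out ORMES-22 replicate B gave LAMB1 1.00 (adjusted p = 0.0135). With no minimum fold the counts were 2 higher in rPESC-2, 4 higher and 1 lower in ORMES-9 against ORMES-22, 3 higher in ORMES-9 against rPESC-2, and 10 lower in fibroblasts. The labels name no pairing by replicate letter. After subtraction of group means, 6 of 18 same-letter pairs correlated over 0.1 (range -0.306 to 0.265). Pairs of different letters were not compared, so these values cannot decide whether the letters pair the samples. With the letter as a replicate block the counts did not move (ITGB1 -1.30, adjusted p = 0.0424). The mean of the probe sets of a gene, without those that averaged at or below the background level, called ITGA8 higher in fibroblasts (2.37). Genes near the background level carry little information on size, and with 3 arrays a group, differences just past 2-fold depend on single arrays.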
